A study of Homo sapiens with 36 samples.

Results

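The comparison described here is the difference between a pair of shRNA effects on the transcriptome: the effect of the ALKBH5 shRNAs against their scramble control, minus the effect of the RBM33 shRNAs against theirs. It was taken for every gene with a mean of at least 1 CPM (reads scaled to a common library size) over the libraries used, which left 18227 of the 21797 genes in the table. It used 15 of the 36 samples of the series. The genes nearest the threshold were JAML and AC073263.2 inside it, at 1.00020 and 1.00026 CPM, and SLC16A3 and RPL39P16 outside it, at 0.99997 and 0.99947 CPM.

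UM-SCC-1 is an established line of head and neck squamous carcinoma cells. All cells carried a retrovirus and were selected with 10 µg/mL blasticidin for 4 days. The tested libraries were 2 with ALKBH5 shRNA-1 and 2 with ALKBH5 shRNA-2, set against 3 with the scramble sequence of the ALKBH5 set, and 2 labelled RBM33 shRNA-1 and 3 labelled RBM33 shRNA-2, set against 3 with the scramble sequence of the RBM33 set. The sample titles name shRNA while the treatment text speaks of siRNA. Nothing in the labels states whether replicates came from different cultures, and the p-values therefore reflect only how far these libraries vary, part of which may be technical. Of 20 markers of basal squamous cells, 11 were found by name in the gene table and 10 were tested. TP63, KRT5, KRT14, KRT15, KRT6A, KRT6B, KRT16, KRT17 and PKP1 were not found there. Of 21 markers of keratinocyte differentiation, 7 were found and 5 tested. The summed level of the tested basal squamous markers was 180 to 199 CPM in ALKBH5 shRNA and 204 to 216 CPM in ALKBH5 scramble libraries. It was 184 to 210 CPM in RBM33 shRNA and 175 to 234 CPM in RBM33 scramble libraries. The summed level of the 4 tested leukocyte markers did not exceed 9.03 CPM in any library.

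ALKBH5 is an enzyme that takes the methyl group off N6-methyladenosine (m6A), the most common internal mark of messenger RNA, and it does so mainly in the nucleus. RBM33 is an RNA-binding protein known as a partner of ALKBH5, and the study was built on the question of whether one acts through the other. If the effect of both shRNA sets on a transcript is equal, the interaction is 0. A positive interaction means that the ALKBH5 effect exceeds the RBM33 effect, and a negative one that it falls below it. By arithmetic the interaction also equals the difference between the shRNA libraries of both sets minus the difference between their scramble libraries, and a difference that shRNA and scramble libraries of a set have in common cancels.

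The targets were read first. ALKBH5 (ENSG00000091542, chromosome 17, 18183078 to 18209954 in hg38) stood at 84.7, 84.8, 75.1 and 89.6 CPM in the ALKBH5 shRNA libraries, against 109, 132 and 123 CPM in ALKBH5 scramble. In the libraries labelled RBM33 shRNA it stood at 107, 114, 108, 112 and 119 CPM, against 118, 118 and 114 CPM in RBM33 scramble. Every ALKBH5 shRNA library lay below every other library. The interaction of ALKBH5 was -0.47 ± 0.11 (estimate ± SE on the log2(CPM + 1) scale, limma adjusted p = 0.021), and its call was lost when 1 of 5 libraries was left out (ALKBH5 scramble replicates 2 or 3, or any RBM33 scramble replicate), with an adjusted p of up to 0.076.

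RBM33 (chromosome 7, 155644451 to 155781485) stood at 191, 204, 208, 199 and 214 CPM in libraries with the label RBM33 shRNA, against 217, 207 and 227 CPM in RBM33 scramble. The ranges overlapped, and the RBM33 transcript was not lowered past the test in its own set (effect -0.09 ± 0.06, limma adjusted p = 0.3). The libraries of that set are therefore named by their label throughout. In the ALKBH5 set RBM33 stood at 253, 249, 220 and 220 CPM with shRNA, against 232, 231 and 227 CPM with scramble, and its interaction was 0.13 ± 0.09 (adjusted p = 0.54).

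Over all genes, 497 had an interaction past an adjusted p of 0.05 (limma on log2(CPM + 1), Benjamini-Hochberg over 18227 genes), which is 2.73% of those tested. The ALKBH5 effect exceeded the RBM33 effect in 375 of them (2.06%) and fell below it in 122 (0.669%). At least 2-fold interactions were reached by 65 and 8 of these. Without an adjustment, 2780 genes had p under 0.05. The count was 38 when limma was run without its mean-variance trend. It was 319 without ALKBH5 scramble replicate 1, 288 without RBM33 scramble replicate 1 and 268 without RBM33 scramble replicate 2. The share of calls above 0 was 75.5%, against 62.5% under quantile normalization and 64.4% with DESeq2.

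Both sides of the arithmetic were then read on their own. Between the shRNA libraries 55 genes differed (0.302% of those tested), 15 higher and 40 lower in ALKBH5 shRNA than in the libraries labelled RBM33 shRNA. Between the scramble groups 452 genes differed (2.48%), 49 higher and 403 lower in ALKBH5 scramble than in RBM33 scramble. Higher calls made up 27.3% of the shRNA differences (55.4% under quantile normalization, 53.8% without RBM33 shRNA-1 replicate 2) and 10.8% of the scramble differences (33.7% under quantile normalization, 22.4% with DESeq2). The shRNA count was 6 without ALKBH5 shRNA-2 replicate 1, 100 without RBM33 shRNA-2 replicate 1, and 21 to 36 without any 1 of the other shRNA libraries or RBM33 scramble replicate 1. The scramble count was 241 without RBM33 scramble replicate 1, 259 without ALKBH5 scramble replicate 3, and 265 and 284 without RBM33 scramble replicates 2 and 3. In the 375 genes with a positive interaction the median shRNA difference was 0.19 and the median scramble difference -0.49, and the scramble difference was the larger in absolute size in 341 of them (90.9%, against 58.1% of all genes tested). In the 122 genes with a negative interaction the medians were -0.24 for shRNA and 0.26 for scramble, and the scramble difference was the larger in 75 (61.5%). These shares describe how the interaction is composed and were not tested, since the interaction is built from both differences.

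**Figure D1:**
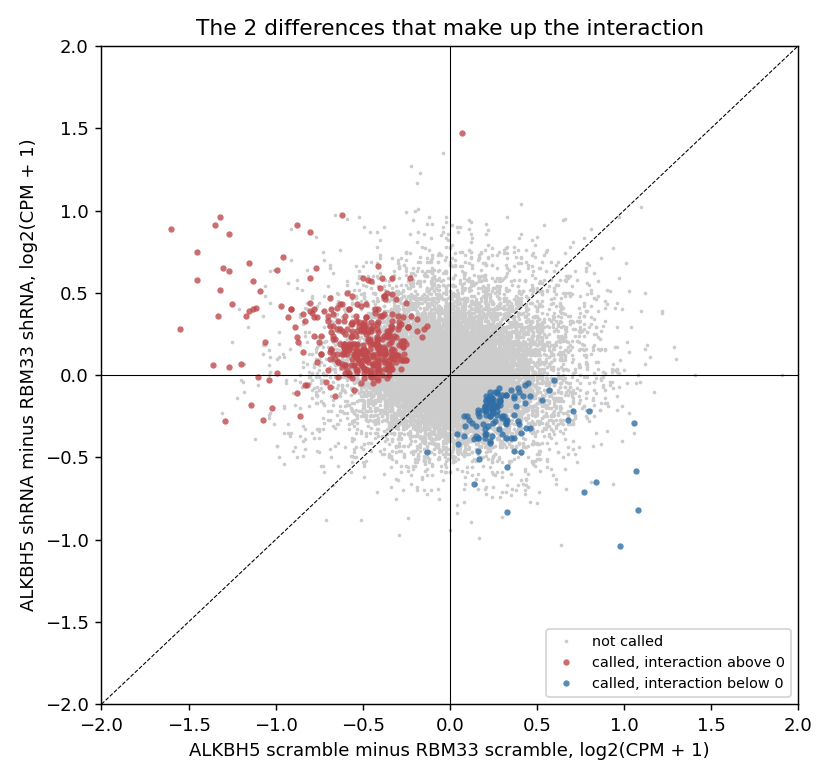
Difference between the scramble groups (x axis, ALKBH5 scramble minus RBM33 scramble) and between the shRNA groups (y axis, ALKBH5 shRNA minus RBM33 shRNA), both in log2(CPM + 1), for 18227 genes. Distance from the dashed diagonal is the interaction: the 375 genes called above 0 spread to the left along the x axis, while the 122 called below 0 lie on the lower right, most of them nearer the centre.

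Read as effects, the signs were mostly opposite in the called genes, against 6104 of the 18227 genes tested. Genes selected for a large difference of effects tend to opposite signs by construction, so the counts below were not tested. Of the 375 positive genes, 322 had an ALKBH5 effect above 0 and an RBM33 effect below 0 (median effects over all 375, 0.36 and -0.31). Of the 122 negative genes, 84 had an ALKBH5 effect below 0 and an RBM33 effect above 0 (median effects over all 122, -0.18 and 0.35). Both effects passed the test with opposite signs in 62 and 4 genes. The shRNAs of a target did not differ in any gene past the adjusted threshold in limma, for ALKBH5 (0 genes, 943 at an unadjusted p under 0.05) or for RBM33 (0 genes, 994 unadjusted). All 497 called genes kept the sign of the interaction in each of the 4 pairings of an ALKBH5 shRNA with an RBM33 shRNA. That was close to fixed in advance, because the pairings share the scramble libraries and reuse the libraries that gave the call.

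The RBM33 scramble libraries stood apart from the other libraries in the balance of short and long genes. The shortest 10% of genes (up to 922 bases in the length column of the gene table) held 12.2, 12.9, 15 and 12.6% of the CPM in ALKBH5 shRNA libraries and 13.5, 11.2 and 12.6% in ALKBH5 scramble. They held 12.1, 13.4, 12.8, 14.2 and 13.5% in the libraries labelled RBM33 shRNA, against 16.1, 17.3 and 15.4% in RBM33 scramble. All 3 RBM33 scramble libraries lay above the 12 others, and in the longest 10% of genes they lay below them (12.9 to 13.4%, against 14.1 to 15.6%). Why these libraries stand apart was not tested.

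**Figure D2:**
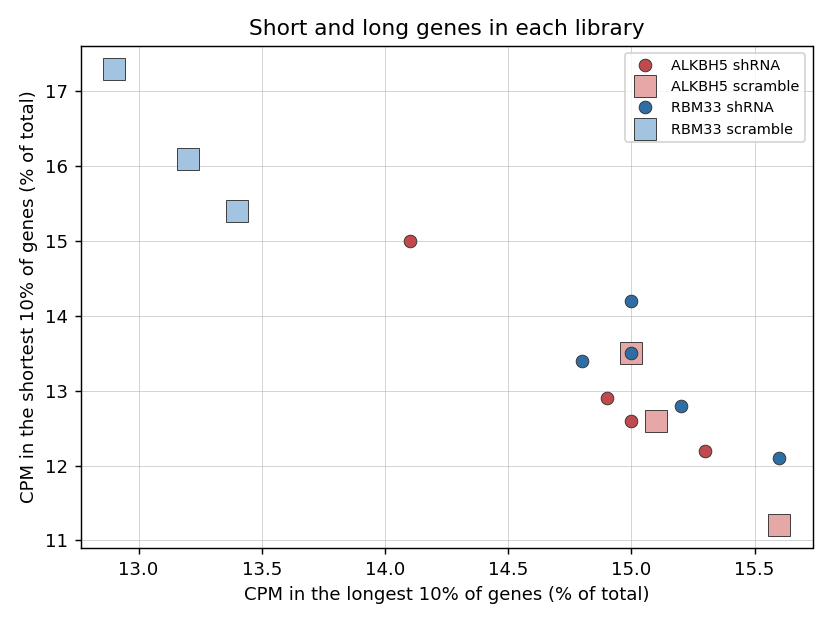
Share of the CPM of each library in the longest 10% of tested genes (x axis) and in the shortest 10% (y axis); circles are shRNA libraries and squares scramble libraries. The 3 RBM33 scramble libraries sit at 15.4 to 17.3% for short genes and 12.9 to 13.4% for long ones, apart from the other 12.

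The interaction followed gene length in the same direction. The median length was 2011 bases in genes with a positive interaction, 10324 in genes with a negative one and 4474 in all genes tested. The median interaction was 0.13 in the shortest decile and -0.16 in the longest. Of the shortest decile 5.26% were called positive and 0.11% negative, and of the longest 0.11% and 3.24%. The decile medians of the scramble difference ran from -0.11 to 0.11, while those of the shRNA difference stayed between -0.04 and 0.05. With the length trend removed within each library, 332 genes were called, 272 positive and 60 negative, of which 285 were among the 497.

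**Figure D3:**
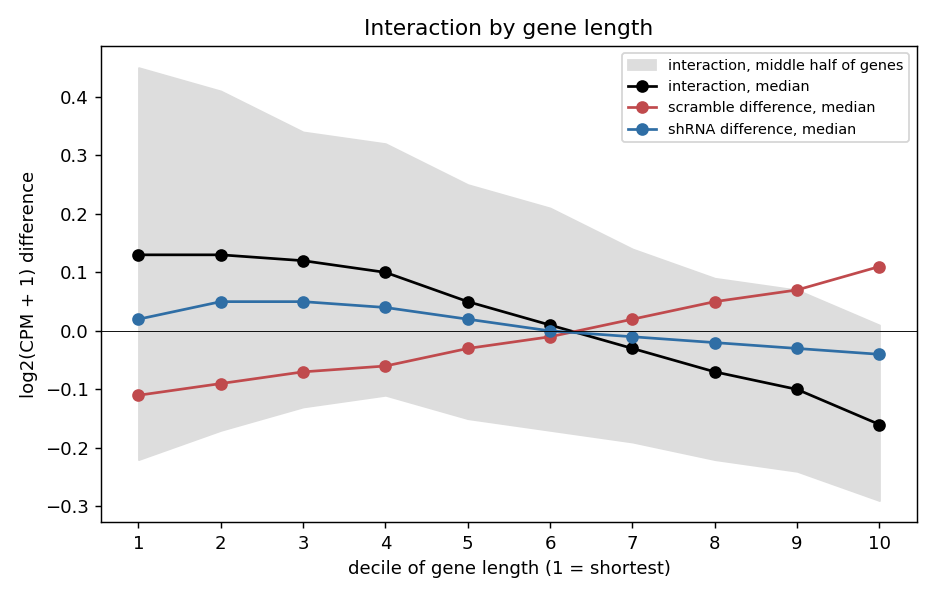
Median log2 difference by decile of gene length (1 = shortest, 482 bases at the median; 10 = longest, 13636 bases at the median), with the range between the quartiles of the interaction estimates shaded. The interaction falls to -0.16 in the longest decile, against 0.13 in the shortest, and the scramble difference runs the opposite way, from -0.11 to 0.11.

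The gene group with the highest share of calls among the 37 lists examined was the replication-dependent histones, the intronless genes that are transcribed in S phase and whose messages end in a stem-loop in place of a poly(A) tail. Of 49 tested, 33 had a called positive interaction (67.3%, against 2.06% of all genes) and none a negative one, with a median of 0.62, against 0.00 over all genes. By family, 11 of 13 H2A, 8 of 10 H3, 9 of 11 H4, 2 of 3 H1 and 3 of 12 H2B genes were called. Some are near-identical copies: H3C14 and H3C15 had the same estimate (0.58 ± 0.11), as did H2AC18 and H2AC19 (0.67 ± 0.11). Single genes are uncertain there, and the called genes may not all be separate measurements. The median RBM33 effect of the list was -0.61 and the median ALKBH5 effect 0.07. Removing the length trend left 26 of the 49 called positive (median 0.49). In bulk RNA, fewer cells in S phase and less histone RNA per cell cannot be told apart.

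In total RNA libraries these messages are captured without a tail. Their summed level was 19949 to 22257 CPM in ALKBH5 shRNA libraries, 20330 to 21406 in ALKBH5 scramble, 16958 to 20949 in the libraries labelled RBM33 shRNA and 29397 to 30851 in RBM33 scramble. Only the RBM33 scramble range lay apart from the other 3 groups, which overlapped each other. The S-phase genes of DNA replication, given for comparison as a list of 35, summed to 5334 to 5596 CPM in ALKBH5 shRNA and 5097 to 5232 in ALKBH5 scramble libraries. They summed to 5340 to 5568 CPM in RBM33 shRNA and 5454 to 5739 in RBM33 scramble libraries. Of these genes 1 (RFC2) was called positive (2.86%, near the 2.06% of all genes), a call lost without any 1 of 13 libraries.

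The promoters of these histone genes share a TATA element a short way before the start of transcription. To show it, bases -45 to -16 before the RefSeq start (GRCh38.p14) are given for the 4 called histones with the lowest p among those holding the letters TATAA on the gene's strand, which are in capitals:
H2AC6: ccccaggaactaccTATAAaagcggccatg
H2AC21: ccctcccggtagctctTATAAattacatca
H4C5: gtccgaattcccggcaTATAAgaatactac
H4C12: tccgccaactgtcgTATAAaggcgctgcct
The windows lie at chr6:26124127-26124156 (plus strand), chr1:149887981-149888010 (minus), chr6:26204565-26204594 (plus) and chr6:27831576-27831605 (minus). Of the 44 tested histone genes with a RefSeq promoter, 35 held TATAA in this window on the gene's strand and the same 79.5% on either strand (TATAA or its reverse complement TTATA), against 4.42% and 5.36% of all 27305 promoters. A match in letters is a description and not a measured binding site.

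H2AC21, a histone H2A gene on chromosome 1 (149887469 to 149887965), had the highest interaction of the list. It stood at 376, 349, 370 and 307 CPM in ALKBH5 shRNA libraries, against 166, 211 and 205 CPM in ALKBH5 scramble. In the libraries labelled RBM33 shRNA it stood at 232, 307, 294, 201 and 295 CPM, against 439, 391 and 424 CPM in RBM33 scramble. Neither pair of groups overlapped, and they moved in opposite directions. H2AC21 rose by 0.86 ± 0.12 with ALKBH5 shRNA (limma adjusted p = 2.1e-05) and fell by 0.67 ± 0.11 in the RBM33 set (adjusted p = 1.5e-04), an interaction of 1.52 ± 0.16 (adjusted p = 5.6e-06). Its span overlaps BOLA1 on the other strand by 76 bases.

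H2AC6 and H4C5, on the main histone cluster of chromosome 6, moved in 1 set. H2AC6 stood at 386, 382, 383 and 336 CPM in ALKBH5 shRNA, against 345, 335 and 346 CPM in ALKBH5 scramble, ranges that overlap. In the RBM33 set it stood at 315, 314, 328, 309 and 289 CPM with shRNA, against 574, 561 and 516 CPM with scramble, with a wide gap between them. The ALKBH5 effect was 0.12 ± 0.07 (limma adjusted p = 0.25) and the RBM33 effect -0.82 ± 0.06 (adjusted p = 3.1e-09), which gave an interaction of 0.94 ± 0.09 (adjusted p = 3.6e-06).

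H4C5 behaved alike, with 179 to 244 CPM in ALKBH5 shRNA and 175 to 200 CPM in ALKBH5 scramble, but 169 to 184 CPM in RBM33 shRNA against 313 to 336 CPM in RBM33 scramble. Its interaction was 1.02 ± 0.11 (limma adjusted p = 5.6e-06). H3C12, which shares its strand and 408 bases with H2AC17, rose by 0.43 with ALKBH5 shRNA and fell by 0.63 in the RBM33 set, an interaction of 1.06 ± 0.11 (adjusted p = 5.6e-06). The calls of all 4 histones named in these paragraphs held when any 1 library was left out.

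**Figure D4:**
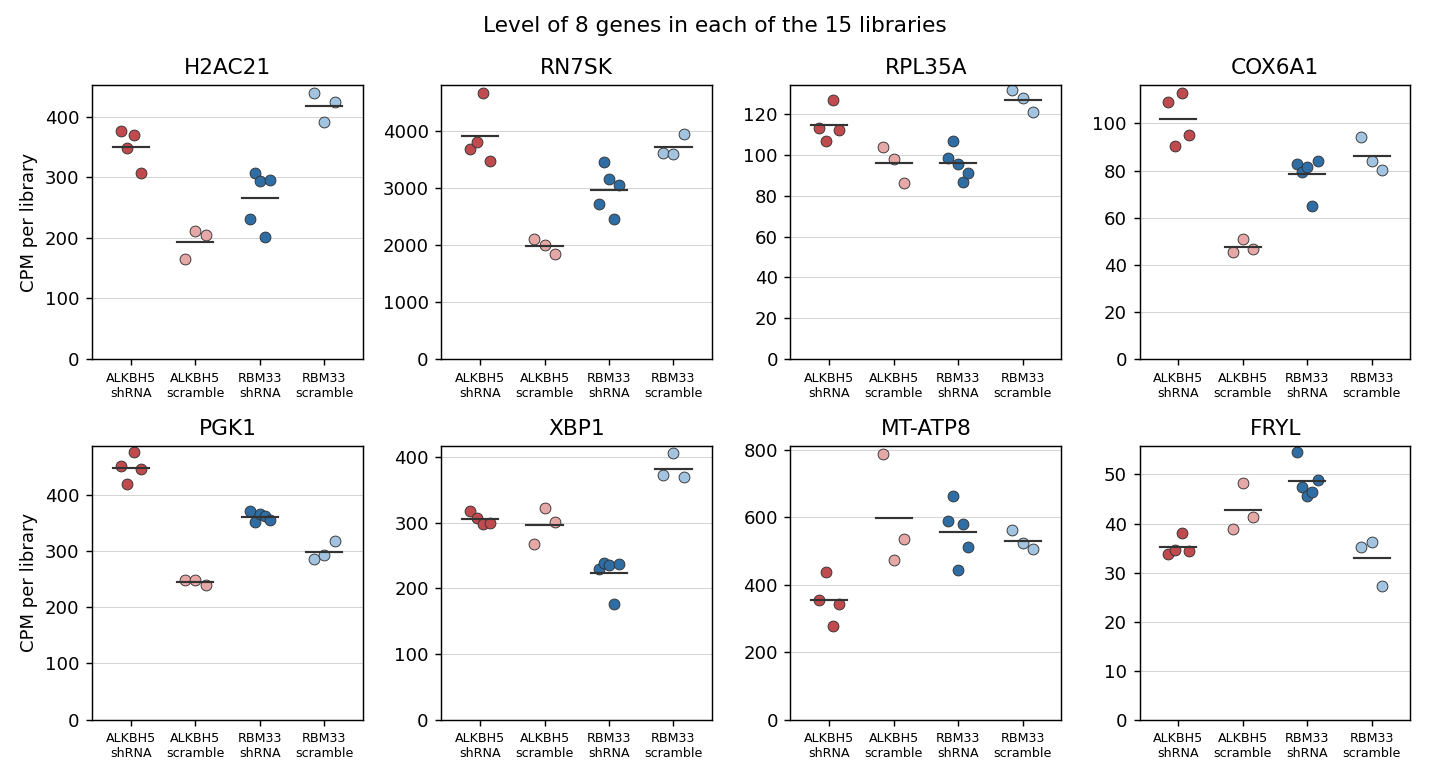
CPM of 8 genes in each of the 15 libraries (points) with the group mean (line), on axes that start at 0. H2AC21, RN7SK and COX6A1 were lowest in ALKBH5 scramble; RPL35A was highest in RBM33 scramble; PGK1 was above scramble in both sets, XBP1 below it only in RBM33 shRNA, MT-ATP8 lowest in ALKBH5 shRNA and FRYL highest in RBM33 shRNA.

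Structured noncoding RNAs are transcripts that work as folded RNA: here the RNAs of 7SK, the signal recognition particle, RNase P, telomerase, the vault and Cajal bodies, and the spliceosomal RNAs. Of 23 tested, 8 had a called positive interaction (34.8%) and none a negative one, with a median of 0.45. Their summed level was 23521 to 29502 CPM in ALKBH5 shRNA, 15289 to 17569 in ALKBH5 scramble, 24296 to 31416 in RBM33 shRNA and 27511 to 33913 in RBM33 scramble libraries. In this sum, where the most abundant members weigh most, ALKBH5 scramble was the group that lay apart, below all others. The medians over members differed from that: the median ALKBH5 effect was 0.02 and the median RBM33 effect -0.34. By annotated gene type, 15 of 67 miscellaneous RNAs (22.4%), 3 of 18 scaRNAs, 3 of 22 mitochondrial tRNAs and 11 of 232 snoRNAs (4.74%) were called positive, and none of these types had a negative call. Removing the length trend left 6 of the 23 called (median 0.23). The calls within the list included none of its spliceosomal RNAs, nor its vault RNA VTRNA1-1 (0.45 ± 0.51, limma adjusted p = 0.75).

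RN7SK is the RNA of the 7SK complex, which holds the elongation factor P-TEFb inactive (chromosome 6, 52995621 to 52995948; the table lists it under a second ID with the same reads). It stood at 3690, 3803, 4664 and 3475 CPM in ALKBH5 shRNA libraries, against 2097, 1999 and 1845 CPM in ALKBH5 scramble. In the RBM33 set it stood at 2722, 3448, 3163, 2456 and 3049 CPM with shRNA, against 3613, 3590 and 3946 CPM with scramble. The groups did not overlap within either set, and RN7SK rose by 0.97 ± 0.10 in the first and fell by 0.33 ± 0.10 in the second (limma adjusted p = 5.2e-07 and 0.02), an interaction of 1.31 ± 0.14 (adjusted p = 5.6e-06).

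VTRNA1-3, a vault RNA outside that list (chromosome 5, 140726158 to 140726246), stood at 89.7, 105, 137 and 106 CPM in ALKBH5 shRNA, against 71.3, 66.1 and 69.2 CPM in ALKBH5 scramble. It stood at 103, 108, 108, 105 and 94 CPM in RBM33 shRNA, against 157, 148 and 173 CPM in RBM33 scramble. The shRNA groups of both sets overlapped while the scramble groups lay on either side of them: the shRNA difference was 0.07 ± 0.08 (limma adjusted p = 0.8) and the scramble difference -1.20 ± 0.10 (adjusted p = 1.6e-07). The interaction was 1.27 ± 0.12 (adjusted p = 3.6e-06).

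SCARNA21, a Cajal body RNA that lies within CHD3 on the same strand and is also outside the list, stood at 264, 231, 320 and 255 CPM in ALKBH5 shRNA, against 97, 109 and 121 CPM in ALKBH5 scramble. It stood at 155, 216, 251, 147 and 239 CPM in RBM33 shRNA, against 251, 264 and 263 CPM in RBM33 scramble, where the highest shRNA library met the lowest scramble one. Its interaction was 1.68 ± 0.19 (limma adjusted p = 7.8e-06), while that of CHD3 was -0.21 ± 0.11 (adjusted p = 0.36). TERC, the RNA template of telomerase, stood at 58.2 to 82.9 CPM in ALKBH5 shRNA and 57.9 to 67.1 CPM in ALKBH5 scramble, against 55.3 to 73.1 CPM in RBM33 shRNA and 94.4 to 121 CPM in RBM33 scramble, an interaction of 0.86 ± 0.13 (adjusted p = 4.4e-04). RN7SL2, the RNA of the signal recognition particle, had an interaction of 0.73 ± 0.13 (adjusted p = 0.0022), a call that was lost under quantile normalization (0.33, adjusted p = 0.21). RNY3, one of the small Y RNAs bound by Ro60, had an interaction of 1.54 ± 0.39 (adjusted p = 0.029), and its call was lost when 1 of 7 libraries was left out, with DESeq2 (adjusted p = 0.11) and with robust empirical Bayes (adjusted p = 0.25).

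Among the 12 genes with the highest interactions at a mean of at least 10 CPM, 5 were long noncoding RNA entries that lie on the strand opposite an abundant protein-coding gene. AC245140.2, opposite RPL10 on chromosome X (154396878 to 154398816), had the highest interaction, 2.49 ± 0.36 (limma adjusted p = 2.4e-04). It stood at 57.8, 45.6, 107 and 30.2 CPM in ALKBH5 shRNA, against 15.6, 19.7 and 10.9 CPM in ALKBH5 scramble. It stood at 30.9, 22.7, 39.1, 26.9 and 27 CPM in RBM33 shRNA, against 49.6, 50.9 and 42.6 CPM in RBM33 scramble. The groups did not overlap in either set, and ALKBH5 shRNA-2 replicate 1 lay far above the other libraries.

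The other 4 were AL138963.3 opposite TPT1 (2.04 ± 0.42), AC006064.4 opposite GAPDH (1.90 ± 0.25), AC011603.2 opposite TUBA1B (1.54 ± 0.31) and AC093503.1 opposite CALM3 (1.43 ± 0.26). In each of the 5, ALKBH5 shRNA-2 replicate 1 was the highest library of all. It also held the largest share of short genes in its group. All 5 calls held when any 1 library was left out, that one included, but those of AL138963.3 and AC011603.2 were lost with robust empirical Bayes (limma adjusted p = 0.11 and 0.079). The genes on the facing strand had smaller interactions: 0.43 ± 0.10 for RPL10, 0.31 ± 0.09 for TPT1, 0.54 ± 0.10 for GAPDH, 0.20 ± 0.09 for TUBA1B and 0.19 ± 0.09 for CALM3. The kit marks strand, but no source used here gives the strand setting of the authors' counting, so reads of these entries and of the facing genes cannot be told apart.

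Ribosomal proteins, the protein part of the cytosolic ribosome, had a positive estimate in 77 of 79 tested. Of the 79, 42 had a called positive interaction (53.2%) and none a negative one, with a median of 0.38. By subunit, 26 of 47 large and 16 of 32 small subunit genes were called, and the estimates ran from -0.19 for RPL22 to 0.88 for RPL27. The median effect was 0.26 for ALKBH5 and -0.18 for RBM33, while the median shRNA difference was 0.00 and the median scramble difference -0.39. Their summed level was 48406 to 56018 CPM in ALKBH5 shRNA, 42376 to 44476 in ALKBH5 scramble, 46813 to 55971 in RBM33 shRNA and 55930 to 58857 in RBM33 scramble libraries. Many of these genes share sequence with processed pseudogenes, so single genes are uncertain where counting could split their reads. With the length trend removed 33 were called positive (median 0.36), and under quantile normalization 32 (median 0.29).

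The messages of this family begin with a C followed by a run of C and T, the 5′ terminal oligopyrimidine tract through which mTOR signalling acts on their translation. The bases from 10 before the RefSeq start to 20 after it (GRCh38.p14) are shown for the 4 called members with the lowest p among those whose first 5 bases fit that description, with the tract in capitals:
RPL35A: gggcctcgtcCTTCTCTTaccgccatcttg
RPL35: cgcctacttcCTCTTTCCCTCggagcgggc
RPS27: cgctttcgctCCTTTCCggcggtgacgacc
RPL29: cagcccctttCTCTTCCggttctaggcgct
The windows lie at chr3:197950180-197950209 (plus strand), chr9:124861938-124861967 (minus), chr1:153990752-153990781 (plus) and chr3:51995876-51995905 (minus). Such a start was found in 43 of the 63 tested ribosomal protein genes with a RefSeq promoter (68.3%), against 4.04% of all promoters, searched on the gene's strand.

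RPL35A, a protein of the large subunit (chromosome 3, 197950190 to 197956610), stood at 113, 107, 127 and 112 CPM in ALKBH5 shRNA, against 104, 97.9 and 86.1 CPM in ALKBH5 scramble. It stood at 98.6, 107, 95.8, 86.7 and 91.1 CPM in RBM33 shRNA, against 132, 128 and 121 CPM in RBM33 scramble. The groups of each set were separate, and the interaction was 0.67 ± 0.11 (limma adjusted p = 0.0012).

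Nuclear genes of oxidative phosphorylation, the subunits of the respiratory chain and ATP synthase made in the cytosol, had a positive estimate in 69 of 76 tested. Of the 76, 21 had a called positive interaction (27.6%) and none a negative one (median 0.39). Of 78 mitochondrial ribosomal proteins 12 were called positive (15.4%) and none negative (median 0.32). With the length trend removed the counts were 16 and 6. COX6A1, a subunit of cytochrome c oxidase, stood at 109, 90.4, 113 and 95 CPM in ALKBH5 shRNA, against 45.6, 51 and 46.7 CPM in ALKBH5 scramble. It stood at 82.7, 79.5, 81.6, 64.9 and 84.2 CPM in RBM33 shRNA, against 94.4, 84.1 and 80.1 CPM in RBM33 scramble.

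COX6A1 thus separated in the ALKBH5 set and overlapped in the RBM33 set. It rose by 1.07 ± 0.10 with ALKBH5 shRNA (limma adjusted p = 1.1e-07), and its RBM33 effect was -0.13 ± 0.10 (adjusted p = 0.36), an interaction of 1.21 ± 0.14 (adjusted p = 9.9e-06). AL021546.1, which shares its strand and span, had an interaction of 1.17 ± 0.15, so the reads of both entries are uncertain. MRPL20, of the mitochondrial large subunit, stood at 57.4 to 74.7 CPM in ALKBH5 shRNA and 34.3 to 40 CPM in ALKBH5 scramble, against 35.5 to 52.3 CPM in RBM33 shRNA and 53 to 58.3 CPM in RBM33 scramble, an interaction of 1.04 ± 0.16 (adjusted p = 5.8e-04).

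Among the 15 tested protein-coding and ribosomal RNA genes of the mitochondrial genome itself, none had a positive estimate. Of these, 2 had a called negative interaction (13.3%, against 0.669% of all genes). The median was -0.41, made of a median ALKBH5 effect of -0.43 and a median RBM33 effect of -0.04. In contrast to the groups above, the median shRNA difference (-0.37) was larger than the scramble difference (0.06). With the length trend removed 7 were called negative (median -0.53). Their summed level was 33905 to 40848 CPM in ALKBH5 shRNA, 40707 to 63278 in ALKBH5 scramble, 37773 to 60753 in RBM33 shRNA and 45522 to 51679 in RBM33 scramble libraries. The 22 tested mitochondrial tRNA genes are outside this list and went the other way. Their median interaction was 0.56, with 3 called positive and none negative.

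MT-ATP8, a small subunit of the mitochondrial ATP synthase whose frame overlaps that of MT-ATP6 by 46 bases, stood at 356, 437, 279 and 343 CPM in ALKBH5 shRNA, against 786, 474 and 534 CPM in ALKBH5 scramble. It stood at 587, 662, 443, 579 and 511 CPM in RBM33 shRNA, against 563, 523 and 506 CPM in RBM33 scramble. All 4 ALKBH5 shRNA libraries lay below the 11 others. The interaction was -0.80 ± 0.17 (limma adjusted p = 0.0096) and the shRNA difference -0.66 ± 0.11 (adjusted p = 0.0095). The MT-ATP8 call was lost with robust empirical Bayes (adjusted p = 0.13). MT-ND5, a subunit of complex I, had an interaction of -0.53 ± 0.13 (adjusted p = 0.02), and its call was lost when 1 of 4 libraries was left out (ALKBH5 shRNA-2 replicate 1, ALKBH5 scramble replicate 1, or RBM33 scramble replicates 2 or 3) and with robust empirical Bayes (adjusted p = 0.078).

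**Figure D5:**
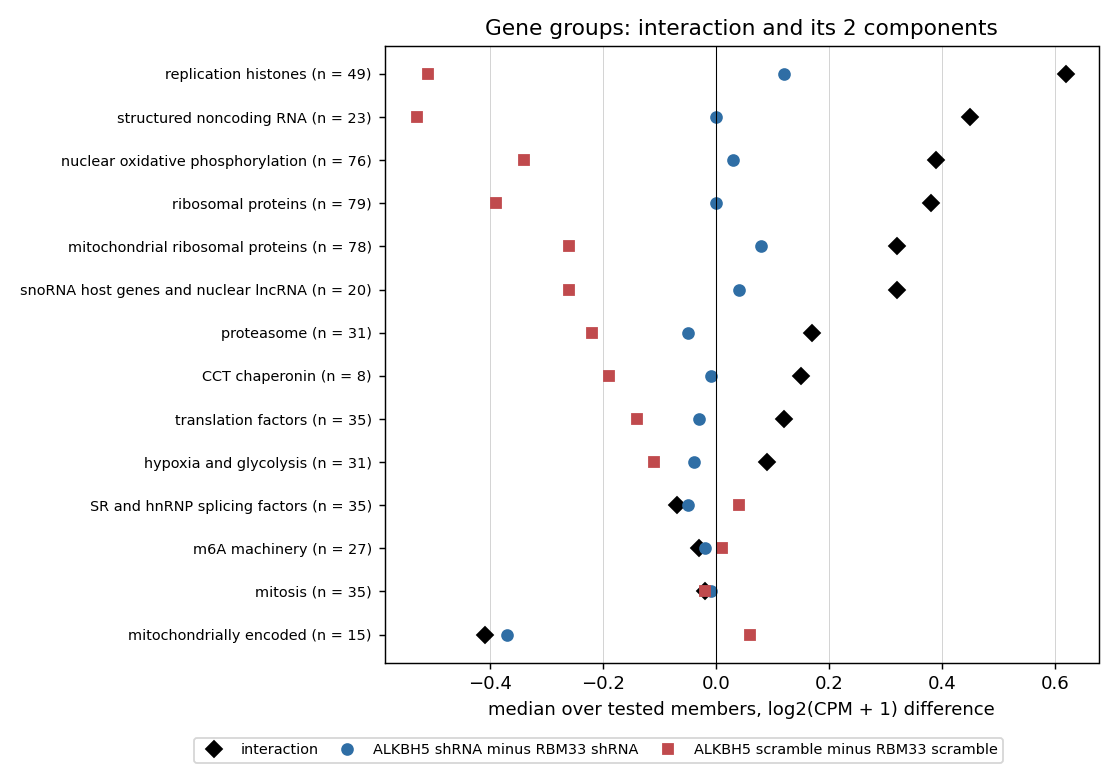
Median log2(CPM + 1) difference over the tested members of 14 gene groups: the interaction (diamonds) and its components between shRNA libraries (circles) and between scramble libraries (squares). Replication histones stand at 0.62 with a scramble difference of -0.51, ribosomal proteins at 0.38 with -0.39, and the mitochondrially encoded genes (without tRNAs) at -0.41 with a shRNA difference of -0.37.

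Translation factors gave 6 called positive interactions of 35 (17.1%) and no negative one (median 0.12). EIF4A1, the RNA helicase of the cap-binding complex, stood at 744, 814, 1095 and 679 CPM in ALKBH5 shRNA, against 645, 560 and 617 CPM in ALKBH5 scramble. It stood at 853, 1095, 911, 967 and 910 CPM in RBM33 shRNA, against 1118, 1273 and 1301 CPM in RBM33 scramble. The groups of each set were separate, and the interaction was 0.81 ± 0.15 (limma adjusted p = 0.0035), no longer called with robust empirical Bayes (adjusted p = 0.08). Reads of EIF4A1 are uncertain, since SENP3-EIF4A1 and several snoRNA genes share its strand. Of these, SNORD10 averaged 606 CPM, against 906 CPM for EIF4A1, and had an interaction of 1.00 ± 0.20 (limma adjusted p = 0.0045). SENP3-EIF4A1, which overlaps EIF4A1 by 5892 bases, averaged 260 CPM and had an interaction of 0.19 ± 0.09 (adjusted p = 0.34). How much of the EIF4A1 call comes from snoRNA reads was not tested. EEF1A1, the elongation factor that carries aminoacyl-tRNA to the ribosome, had an interaction of 0.51 ± 0.10 (adjusted p = 0.0062), which was no longer called under quantile normalization (0.22, adjusted p = 0.29). EIF4EBP1, the repressor of cap binding that mTORC1 phosphorylates, had an interaction of 0.66 ± 0.12 (adjusted p = 0.0024).

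Genes of hypoxia and glycolysis gave 5 called positive interactions of 31 (16.1%) and no negative one (median 0.09). PGK1, the glycolytic phosphoglycerate kinase, stood at 450, 419, 475 and 446 CPM in ALKBH5 shRNA, against 248, 248 and 240 CPM in ALKBH5 scramble. It stood at 370, 352, 366, 361 and 354 CPM in RBM33 shRNA, against 285, 293 and 317 CPM in RBM33 scramble. Both shRNA groups lay above their scramble: PGK1 rose by 0.86 ± 0.06 in the ALKBH5 set (limma adjusted p = 1.7e-09) and by 0.28 ± 0.06 in the RBM33 set (adjusted p = 0.0022), an interaction of 0.59 ± 0.09 (adjusted p = 3.6e-04). The components were of like size, with a shRNA difference of 0.31 ± 0.05 and a scramble difference of -0.28 ± 0.07. TPI1 (0.64 ± 0.11), GAPDH (0.54 ± 0.10) and ENO1 (0.43 ± 0.09), 3 further glycolytic enzymes, fell in the RBM33 set, and the calls of GAPDH and ENO1 were lost under quantile normalization.

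XBP1, the transcription factor whose message is spliced in the unfolded protein response, was the 1 called gene of 24 in its list (4.17%). It stood at 318, 308, 298 and 300 CPM in ALKBH5 shRNA, against 267, 323 and 301 CPM in ALKBH5 scramble, which overlap. It stood at 230, 239, 235, 177 and 237 CPM in RBM33 shRNA, against 373, 406 and 369 CPM in RBM33 scramble, the lowest and the highest group. XBP1 fell by 0.78 ± 0.08 in the RBM33 set (limma adjusted p = 4.2e-07) with an ALKBH5 effect of 0.05 ± 0.09 (adjusted p = 0.79), an interaction of 0.83 ± 0.12 (adjusted p = 2.9e-04), and it was also among the 55 genes that differed between the shRNA libraries (0.46 ± 0.08, adjusted p = 0.0095).

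The m6A machinery, the group nearest to the function of ALKBH5, had a median interaction of -0.03, with 1 positive and 3 negative calls in 27 genes (3.7% and 11.1%). TRMT112, a cofactor of several methyltransferases including METTL5, stood at 116, 93.7, 97.1 and 105 CPM in ALKBH5 shRNA, against 61.7, 76.1 and 58.4 CPM in ALKBH5 scramble, while in the RBM33 set it stood at 87.1, 102, 101, 80.5 and 90.3 CPM with shRNA, against 103, 100 and 90.5 CPM with scramble. Its groups were separate in the first set and overlapped in the second, and its interaction was 0.74 ± 0.14 (limma adjusted p = 0.0039). The negative calls were ALKBH5 itself, RBM15 (-0.36 ± 0.09, adjusted p = 0.037) and ZC3H13 (-0.43 ± 0.11, adjusted p = 0.027), the last 2 being parts of the m6A writer complex. The calls of RBM15 and ZC3H13 were lost when 1 of 9 and 1 of 5 libraries was left out, and that of ZC3H13 also with the length trend removed.

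Of the mTORC1 regulators 3 of 37 were called positive (8.11%) and none negative. They were EIF4EBP1 and a pair of Ragulator subunits, LAMTOR2 and LAMTOR4, which anchor Rag GTPases on the lysosome. LAMTOR2 stood at 44.3, 46.3, 49.3 and 41.2 CPM in ALKBH5 shRNA, against 29.1, 32.7 and 31.5 CPM in ALKBH5 scramble. It stood at 39.5, 43.4, 39.8, 27.6 and 31.3 CPM in RBM33 shRNA, against 45.9, 48.7 and 49.6 CPM in RBM33 scramble. Both sets separated, in opposite directions, and the interaction was 0.94 ± 0.16 (limma adjusted p = 0.0012); that of LAMTOR4 was 0.95 ± 0.18 (adjusted p = 0.0031). DDIT4, an inhibitor of mTORC1 that fell in both sets (effects -0.84 and -1.03), had an interaction of 0.19 ± 0.10 (adjusted p = 0.34), with a 95% interval of -0.01 to 0.39.

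SQSTM1, the autophagy receptor p62, stood at 121, 123, 115 and 110 CPM in ALKBH5 shRNA, against 58.8, 73.3 and 55 CPM in ALKBH5 scramble. It stood at 98.9, 107, 112, 106 and 113 CPM in RBM33 shRNA, against 79.7, 83.6 and 77.7 CPM in RBM33 scramble. It rose in both sets, by 0.91 ± 0.09 and 0.41 ± 0.08 (limma adjusted p = 1.4e-07 and 9.8e-04), and the interaction of 0.50 ± 0.12 (adjusted p = 0.022) lost its call without ALKBH5 scramble replicates 1 or 3 or RBM33 scramble replicates 1 or 2. It was the 1 called gene of 39 of autophagy and lysosome (2.56%). Among 24 cytosolic heat shock chaperones limma called 0 and edgeR 0 (8 at an unadjusted p under 0.05 in limma, median 0.12); HSPA6, the strictly inducible one, stood at 16.5, 13.9, 15.3 and 14.6 CPM in ALKBH5 shRNA, against 0, 0.461 and 1.13 CPM in ALKBH5 scramble, and at 5.34, 3.82, 5.28, 6.84 and 5.47 CPM in RBM33 shRNA, against 1.29, 0.485 and 0 CPM in RBM33 scramble. The HSPA6 shRNA libraries differed by 1.35 ± 0.26 (adjusted p = 0.022), while its interaction was 1.40 ± 0.40 (adjusted p = 0.065).

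The negative interactions were smaller and lay mostly in long genes. FRYL, a very large protein related to the Furry family of cell polarity factors (chromosome 4, 48497357 to 48780322), stood at 33.7, 34.5, 38 and 34.3 CPM in ALKBH5 shRNA, against 38.9, 48.3 and 41.3 CPM in ALKBH5 scramble. It stood at 54.5, 47.4, 45.7, 46.4 and 48.9 CPM in RBM33 shRNA, against 35.2, 36.2 and 27.3 CPM in RBM33 scramble. The groups were separate in both sets, although the ALKBH5 effect did not pass the test (-0.27 ± 0.11, limma adjusted p = 0.1), and FRYL rose by 0.56 ± 0.11 in the RBM33 set (adjusted p = 6.6e-04), an interaction of -0.83 ± 0.15 (adjusted p = 0.0029).

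SLC36A1, a lysosomal and plasma membrane amino acid transporter, had the lowest estimate among called genes at a mean of at least 10 CPM. It stood at 8.89, 9.66, 9.74 and 6.74 CPM in ALKBH5 shRNA, against 11.8, 8.45 and 12.4 CPM in ALKBH5 scramble. It stood at 16.2, 16, 19.6, 16.4 and 13.3 CPM in RBM33 shRNA, against 10.5, 6.95 and 8.01 CPM in RBM33 scramble. The 5 libraries labelled RBM33 shRNA lay above all others. Its interaction was -1.16 ± 0.27 (limma adjusted p = 0.017), a call lost without ALKBH5 scramble replicates 1 or 3 or RBM33 scramble replicate 2. ZNF618, a zinc finger protein, had an interaction of -0.78 ± 0.14 (adjusted p = 0.0028), and its call held when any 1 library was left out.

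The mitosis list had a median interaction of -0.02 with 1 positive and 2 negative calls in 35 genes (2.86% and 5.71%). CENPE, the kinetochore kinesin, stood at 167, 203, 172 and 181 CPM in ALKBH5 shRNA, against 247, 262 and 232 CPM in ALKBH5 scramble. It stood at 222, 226, 201, 217 and 208 CPM in RBM33 shRNA, against 209, 182 and 211 CPM in RBM33 scramble. It was separate in the ALKBH5 set and overlapped in the RBM33 set, with an interaction of -0.55 ± 0.11 (limma adjusted p = 0.0041). The 4 genes that fell in the ALKBH5 set and rose in the RBM33 set, both past the test, were ASPM (-0.49 ± 0.09), CENPF (-0.48 ± 0.10), HIPK2 (-0.45 ± 0.10) and RIF1 (-0.43 ± 0.10), with lengths of 10888, 11673, 15622 and 18166 bases. CENPF, HIPK2 and RIF1 were no longer called with the length trend removed, nor were HIPK2 and RIF1 without RBM33 scramble replicate 2, or RIF1 without ALKBH5 scramble replicate 1.

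SLC7A11, the cystine transporter and a target of both ATF4 and NRF2, stood at 127, 125, 125 and 133 CPM in ALKBH5 shRNA, against 170, 172 and 182 CPM in ALKBH5 scramble, and at 133, 126, 144, 167 and 146 CPM in RBM33 shRNA, against 139, 145 and 143 CPM in RBM33 scramble. It fell in the ALKBH5 set (-0.45 ± 0.07, limma adjusted p = 1.2e-04), overlapped in the RBM33 set (0.00 ± 0.07) and had an interaction of -0.45 ± 0.10 (adjusted p = 0.011), no longer called with the length trend removed. It was the 1 call among 28 ATF4 targets (3.57%, near the 2.73% of all genes called in either direction). Neither limma nor edgeR called a gene (0 each) among 35 SR and hnRNP splicing factors (10 at an unadjusted p under 0.05 in limma, median -0.07), 25 p53 targets (4, median 0.00) or 23 genes of cholesterol synthesis (3, median 0.13).

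The m6A tables of the authors list peaks with a difference between shRNA and scramble. A peak was listed in the ALKBH5 tables for 52.3% of the genes with a positive interaction and 72.1% of those with a negative one, against 45.1% of all genes tested. In the RBM33 tables the shares were 19.7% and 36.9%, against 15.3%. Listing followed gene length, with 3.34% of the shortest and 59.8% of the longest decile in the ALKBH5 tables, so these shares were read no further. In the authors' deposited tables of RNA fold changes, the mean over the shRNAs of ALKBH5 minus that of RBM33 had the sign of the interaction for all 84 called genes named by rule, with a median gap of 0.01 on the log2 scale and a largest gap of 0.44 for PMEL. Those tables give the same RNA-seq comparisons of this series, so the likeness concerns the processing and is not an independent check.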

How the data were processed

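Total RNA of UM-SCC-1 cells was made into stranded libraries and sequenced, and 15 of the 18 RNA-seq libraries have a column in the gene table used here; the others were not analysed here. The deposited signal values are gene counts scaled to a normalized library size (CPM), and per the submitters' processing notes the tools include cutadapt 1.18, HISAT2 2.1.0, featureCounts of Subread 1.6.4, edgeR 3.24.3 and DESeq2, with the hg38 build. The authors' deposited tables give log2 fold changes and p-values for RNA, and natural log differences for m6A peaks, which were used only as described beside each value. All values (100%) came out as whole reads within 0.1 of a read, and libraries held 4493849 to 6733017 reads, so 3 reads correspond to 0.43 to 0.659 CPM; such limits cover counting error only.

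Values were transformed to log2(CPM + 1), filtered at a mean of 1 CPM, and fitted with limma 3.58.1 (R 4.3.3) as 6 group means with a mean-variance trend and 9 residual degrees of freedom; each shRNA effect is the mean over the libraries of a target. A fold on this scale understates the change of low genes. Adjusted p-values are Benjamini-Hochberg over 18227 genes, called under 0.05. The same contrast on the recovered whole reads called 504 genes with edgeR 4.0.16. The steps were tested on simulated data. The replicates of a group differed by more than counting noise (chi-square per degree of freedom 3.03 to 9.09).

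Genes are named by rule: the targets and DDIT4, the 12 highest and 12 lowest called genes averaging 10 CPM or more and with 1 sign in all 4 shRNA pairings, the 6 highest and 6 lowest further genes whose effects were both called with opposite signs, and up to 4 called members (or the lowest-p member) of each list; others were chosen after their values were seen. Some genes that the rule names are not reported here. Members and lists were chosen with earlier results of these data known. Alternatives covered the pseudocount, the filter, normalization, the test, gene length, the replicate block and leaving out each library.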

Additional observations from a re-analysis of the deposited data

How the results depend on the processing

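No called interaction of a gene named by rule changed sign under the alternatives run. The balance of the shRNA differences did turn, from mainly lower calls (15 higher, 40 lower) to 31 higher and 25 lower under quantile normalization and 14 higher and 12 lower without RBM33 shRNA-1 replicate 2. The interaction count was 504 with edgeR (375 higher, 129 lower), 707 with DESeq2 1.42.0 (455 and 252, 64.4% higher against 75.5% in limma) and 517 under quantile normalization (323 and 194, 62.5% higher). For the scramble difference, 22.4% of calls were higher with DESeq2 and 33.7% under quantile normalization, against 10.8%; for the shRNA difference 55.4% were higher under quantile normalization, against 27.3%. Without the mean-variance trend the interaction, scramble and shRNA counts were 38, 37 and 0. Of the 84 called genes named by rule, 67 lost their call in that setting, a loss that the paragraphs on single genes above do not list. Among the 67 were ALKBH5, MT-ATP8, EIF4A1, RNY3, SLC7A11, GAPDH and ENO1. The shRNA count was 215 with DESeq2, 101 with robust empirical Bayes and 165 over protein-coding genes only, an alternative chosen after seeing the data. Leaving out 1 library at a time gave 268 (RBM33 scramble replicate 2) to 541 interaction calls, with 288 without RBM33 scramble replicate 1 and 319 without ALKBH5 scramble replicate 1. It gave 241 (RBM33 scramble replicate 1) to 506 scramble calls, with 259 without ALKBH5 scramble replicate 3, 265 and 284 without RBM33 scramble replicates 2 and 3, and 6 (ALKBH5 shRNA-2 replicate 1) to 100 shRNA calls. DESeq2 gave no adjusted p for some named genes, among them PMEL, GADD45B and HSPA6. The causes were not tested.

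The replicate numbers gave no sign of pairing the samples: deviations of same-numbered libraries correlated at -0.14 to 0.07 (31 pairs), against -0.08 to 0.16 for different numbers (62 pairs). Deviations were taken from means of 2 or 3 libraries and are tied within a group, so this check cannot settle whether the numbers pair samples. With the replicate block 410 interactions were called, 398 of them shared with the 497, and 24 shRNA differences. With the replicate block and the length trend removed together, the interaction, scramble and shRNA counts were 257, 282 and 32. Depth limits genes near 1 CPM, where 1 read is worth 0.1433 to 0.2198 CPM.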

Other observations

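Among the 497 called genes, RNU6-1, a U6 spliceosomal RNA gene on chromosome 15 chosen after its values were seen, had the highest shRNA difference, 1.47 on the log2(CPM + 1) scale, beside a scramble difference of 0.07. Its ALKBH5 effect was 2.82, its RBM33 effect 1.42 and its interaction 1.40 (limma adjusted p = 0.0092). RNU6-1 is not named by rule, and its call was not followed through the alternatives or the left-out libraries. Whether some of its reads come from similar U6 genes was not tested, so this single gene is uncertain. PMEL, a melanosome protein, was the 1 called gene among 7 neural and melanocyte markers (14.3%, against 2.06% of all genes called positive). Its interaction was 2.13 ± 0.44 (limma adjusted p = 0.0083), a call lost without the mean-variance trend. PMEL levels were low and scattered, at 0.685 to 3.77 CPM in ALKBH5 scramble and 0.953 to 7.47 CPM in RBM33 shRNA libraries. Its effects were -1.39 for RBM33 shRNA-1 and -0.36 for RBM33 shRNA-2. Both CCT7 (0.53 ± 0.10, adjusted p = 0.0026) and CCT5 (0.40 ± 0.09, adjusted p = 0.019) were called among the 8 subunits of the CCT chaperonin, which folds actin and tubulin (25%, against 2.06% of all genes called positive). The call of CCT5 was lost without ALKBH5 scramble replicate 3 or RBM33 scramble replicates 2 or 3 (adjusted p up to 0.054). Of 31 proteasome genes 3 were called (9.68%), with PSMA7 at 0.72 ± 0.14 (adjusted p = 0.0039). GADD45B, a stress-induced gene, was the 1 called of 19 YAP targets (5.26%, against 2.06% of all genes called positive), at 1.18 ± 0.27 (adjusted p = 0.015). Its call was lost without ALKBH5 scramble replicate 3 (adjusted p = 0.058) and without the mean-variance trend. It was also lost with the replicate block and the length trend removed together (adjusted p = 0.058).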
